A study of Mus musculus with 13 samples.

Results

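Chemokines are small secreted or membrane-held proteins that direct cell movement, and the 40 genes described here are 28 chemokine ligands, 8 signalling receptors and 4 atypical receptors. They come from a fixed list of chemokine system genes, found by their mouse gene symbols with no rule on their values, and they stand among 49315 genes counted in every library. The list leaves out some genes of the system, such as Cxcr2. RNA-Seq was performed on the whole midbrain of 13 male mice, each library from a different animal, to ask how loss of the kinase RIPK3 in astrocytes alters the tissue response to death of dopaminergic neurons. All mice were homozygous for the floxed Ripk3 allele (Ripk3 fl/fl), were 8 to 12 weeks old on a C57BL/6J background, and received tamoxifen at 60 mg/kg for 5 days, finished at least 1 week before the experiment. Cre+ mice carried the tamoxifen-inducible Cre recombinase driven by the astrocyte promoter of Aldh1l1 and Cre- littermates did not. MPTP, a neurotoxin whose metabolite enters dopaminergic neurons, was injected at 20 mg/kg once a day for 5 days, Saline was given to the others, and tissue was taken 3 days after the last injection. Each group had 3 mice, except Cre+ MPTP with 4.

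Chemokines bind G protein-coupled receptors on leukocytes, glia and neurons. They are named for the spacing of their first cysteines (CC, CXC, CX3C and XC) and are often sorted into inflammatory ligands, which are switched on by NF-kappaB and interferon signals and draw in neutrophils, monocytes or T cells, and homeostatic ligands, which are made at rest. In the brain, neurons make Cx3cl1, whose receptor marks microglia, and Cxcl12 guides cell position and is made by endothelial cells, meninges and neurons. Most atypical receptors bind chemokines without G protein signalling and take them up or move them.

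Library totals ran from 11489150 to 29397278 counts with a median of 24907639. The smallest was Cre- MPTP replicate 1, in which 21101 genes had a count above 0 while the rest had 25432 to 27186, and this library stood apart from its group. Levels are given as CPM, counts scaled to library size with TMM factors. The 5 muscle genes summed to 5486 CPM in Cre+ MPTP replicate 4 and to 7.59 to 123 elsewhere. As a check of the tissue, 5 markers of dopaminergic neurons summed to 178.2 to 350.9 CPM in every library, with MPTP and Saline overlapping. Ripk3 itself had 4 to 11 counts in the Saline groups, 6, 18 and 40 in Cre- MPTP and 19, 4, 8 and 10 in Cre+ MPTP. The genotypes overlapped, so these counts could not check the label of a single mouse, and whole tissue also holds Ripk3 RNA from cells other than astrocytes. Each adjusted p below comes from the quasi-likelihood test of edgeR with Benjamini-Hochberg adjustment over all 19360 genes tested, log2 fold changes are given with their standard error (SE), and a gene is called at an adjusted p under 0.05. In bulk tissue, fewer cells of a type and less RNA per cell cannot be told apart.

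In the midbrain of Cre- Saline mice the chemokine system was dominated by a few homeostatic ligands. Per length, in TPM, Cxcl14, a CXC ligand of many epithelia, led with 209.9 ± 19.0 (SD, n = 3), followed by Cx3cl1, the membrane-anchored neuronal ligand, with 181.1 ± 13.3. Ccl27a, whose receptor is Ccr10, came next at 67.5 ± 13.3 TPM and Cxcl12 at 25.4 ± 4.41 TPM. The first pair did not overlap between libraries, at 196.1 to 231.6 and 166.6 to 192.9 TPM, nor did any neighbours in this order down to Ackr3. Next was Ackr3, the scavenging receptor for Cxcl12, at 9.05 ± 0.750 TPM, Ccl25, a gut and thymus ligand, 4.42 ± 0.646, and Cxcr4, the signalling receptor for Cxcl12, 4.06 ± 1.09. Ccl25 and Cxcr4 did not differ beyond their spread, nor did Pf4 (3.87 ± 0.518 TPM) or Ccr10 (3.13 ± 1.55 TPM) below them. The order of the first 4 was the same in Cre+ Saline mice. Ccl27a has near-identical copies in the mouse genome and only uniquely mapped reads were counted, so its level is uncertain.

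The inflammatory ligands were close to 0 at rest. Of the 40 genes, 30 had at least 10 counts in at least 3 libraries and were tested. Of these, Cxcl2, Ccl2, Ccl7, Ccl11, Ccl3 and Cxcl9 reached 10 counts in no Saline library and passed only through MPTP libraries. Cxcl1, Ccl5, Cxcl13, Ccr1 and Ackr4 reached 10 counts in fewer than 3 Saline libraries, so they too needed MPTP libraries to pass. The other 19 reached it in at least 3 Saline libraries. The 10 genes under that filter were Ppbp, Ccl4, Ccl19, Ccl22, Xcl1, Ccr6, Ccr7, Cxcr3, Cxcr6 and Ackr2. Ccl19, a lymph node ligand, had 1 count in all 13 libraries together, and Xcl1 at most 1 in any library. Ccl22, a dendritic cell ligand for Ccr4, had 3 to 8 counts in the Saline libraries, 6 to 8 in Cre+ MPTP, and 1, 13 and 59 in Cre- MPTP. Cxcr3, the receptor for Cxcl9 and Cxcl10 on T cells, had between 0 and 6 counts in every library, and Ccr6, a receptor of lymphocytes, between 0 and 3. Ccr7, which guides cells to lymph nodes, had 1, 14 and 6 counts in Cre- MPTP and at most 5 elsewhere, and Ackr2, which clears inflammatory CC ligands, 0 to 19 in all.

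**Figure D1:**
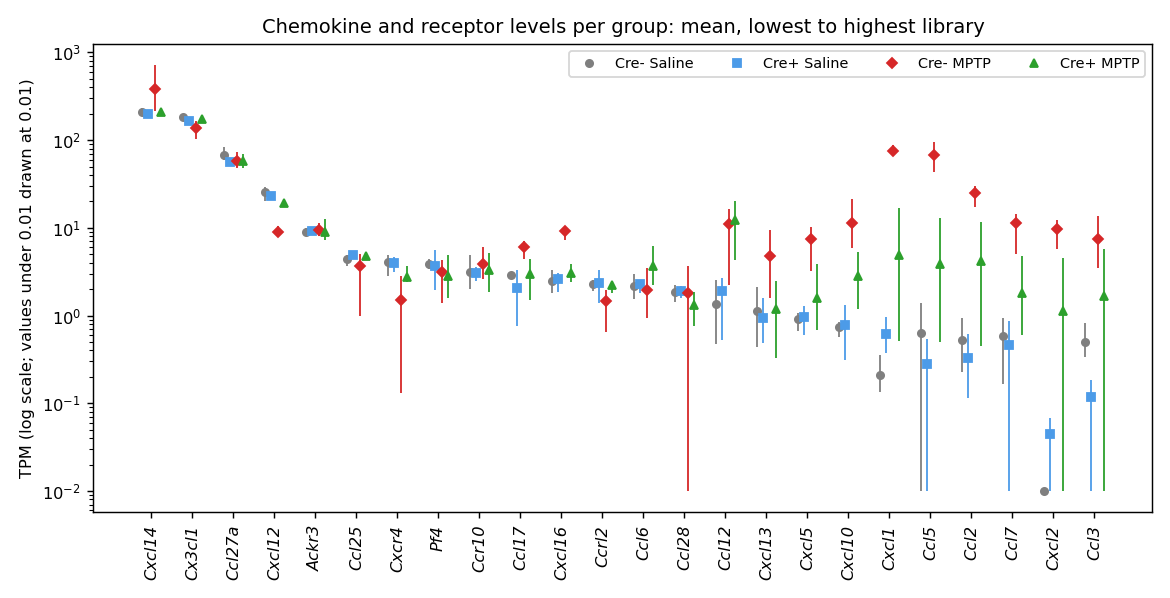
Level of chemokine and receptor genes in TPM (log scale) in the 4 groups, with the mean as a symbol and a line from the lowest to the highest library. The genes are the 18 with the highest mean in Cre- Saline, followed by the others among the 18 highest in Cre- MPTP, and Cxcl1 rises from 0.208 TPM in Cre- Saline to 75.9 in Cre- MPTP.

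MPTP in Cre- mice raised 10 of the 30 tested genes and lowered 1. Among all 19360 genes, 3.18% were called in this comparison, 2.23% higher and 0.956% lower. All 10 that rose were ligands: the CXCR2 ligands Cxcl1 and Cxcl5, the CCR2 and CCR3 ligands Ccl2, Ccl7 and Ccl11, the CCR1 ligands Ccl5 and Ccl9, the CXCR3 ligands Cxcl9 and Cxcl10, and membrane-anchored Cxcl16. Cxcl12 fell. In 14 of the 30 genes every Cre- MPTP library lay above every Cre- Saline library, and in 4 every one lay below, against 7.11% and 8.02% of all genes tested. Beside the called ones these were Cxcl2, Ccl12, Ccl3 and Ccl17 above, and Cx3cl1, Cxcr4 and Ccrl2 below. The median log2 fold change of the 30 was 1.63, against 0.03 over all genes tested. Genes that needed MPTP libraries to pass the filter, Cxcl1 and Ccl5 among them, were in part chosen for high MPTP values. These counts therefore describe the tested members and not the 40.

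The CXCR2 ligands draw in neutrophils and lie side by side on chromosome 5, where Cxcl5, Ppbp, Pf4, Cxcl1 and Cxcl2 fill 147 kb (chr5:90759360-90905938, GRCm38). Cxcl1 went from 2, 5 and 2 counts with Saline to 575, 870 and 1430 with MPTP in Cre- mice. In CPM these were 0.0794, 0.195 and 0.0730 against 62.3, 34.5 and 47.2. No Cre- MPTP library came near the Saline range, and by TPM Cxcl1 ranked 3 of the 40 genes in Cre- MPTP at 75.9 ± 11.6 (SD, n = 3), with Ccl5 and Ccl27a, ranked 4 and 5, overlapping it. The log2 fold change was 8.64 (SE 1.40, adjusted p = 0.00439), the largest of the called members. Cxcl2 had 0 counts in each Cre- Saline library and 49, 178 and 200 in Cre- MPTP, at least 54.8-fold higher against a floor of 3 counts per library, with an adjusted p of 0.0592. Cxcl5 had 10, 15 and 15 counts against 68, 135 and 51 and rose by 3.20 (SE 0.70, adjusted p = 0.0264) on the log2 scale. Ppbp, a platelet ligand of the same receptor, had 0 counts in all 3 Cre- MPTP libraries. Its neighbour Pf4, platelet factor 4, had 22, 24 and 19 counts in Cre- Saline and 13, 7 and 23 in Cre- MPTP, with overlapping groups.

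The bases just before the RefSeq transcription starts of Cxcl1 and Cxcl2 (GRCm38.p6, plus strand) are shown because both genes were at or near 0 counts with Saline and far above it in each Cre- MPTP library. Capitals mark matches to the NF-kappaB-like letters GGNNTTTCC, read on both strands.
Cxcl1, chr5:90891146-90891244: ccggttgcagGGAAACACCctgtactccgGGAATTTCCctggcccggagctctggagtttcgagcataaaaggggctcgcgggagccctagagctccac
Cxcl2, chr5:90903793-90903898: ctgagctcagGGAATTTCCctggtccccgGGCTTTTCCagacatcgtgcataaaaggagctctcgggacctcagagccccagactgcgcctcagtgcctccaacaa
Both promoters held 2 matches. In the 300 bases around each start, 5.82% of 32851 RefSeq promoters held at least 1. Of the 31 members with a RefSeq promoter, 7 genes (22.6%, against 6.62% of 27025 genes) did: Cxcl1, Cxcl2, Cxcl9, Cxcl10, Ccl9, Ackr4 and Ccrl2. Ackr4 and Ccrl2, both atypical receptors, were not called in any comparison. A match describes letters only and was not tested as a binding site. Members with no promoter in the table were Cxcl5, Ccl2, Ccl7, Ccl11, Ccl5, Ccl4, Cxcl16, Ccr7 and Ccr10.

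The ligands of CCR2, the receptor of inflammatory monocytes, and their neighbour Ccl11 (eotaxin) share 68 kb of chromosome 11 (chr11:82035571-82103400, GRCm38). Ccl2, the main monocyte attractant, had 4, 8 and 2 counts in Cre- Saline and 83, 244 and 269 in Cre- MPTP, or 0.0730 to 0.312 CPM against 8.88 to 9.66. The 3 Cre- MPTP libraries were nearly equal in CPM, and the log2 fold change was 5.63 (SE 0.99, adjusted p = 0.00689). Ccl7 went from 6, 1 and 4 counts to 17, 81 and 100 (log2 fold change 4.28, SE 0.87, adjusted p = 0.0171). Ccl11 went from 1 count in each Cre- Saline library to 3, 40 and 31, a ratio of 29.8 with a counting interval from 9.80 to 148 (95%, counting error only), and had an adjusted p of 0.00412. Ccl12, the fourth gene of this stretch and another CCR2 ligand, had 11, 4 and 2 counts in Cre- Saline and 5, 55 and 76 in Cre- MPTP. Its groups did not overlap in CPM, yet it was not called (log2 fold change 3.02, SE 0.79, adjusted p = 0.0671), and replicate 1 was the low library at 0.542 CPM.

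Ccl5 (RANTES), a ligand of CCR1 made by lymphocytes and glia, had 0, 10 and 4 counts in Cre- Saline and 264, 297 and 789 in Cre- MPTP. In CPM it reached 28.6, 11.8 and 26.0, with a log2 fold change of 6.91 (SE 1.30, adjusted p = 0.0101). Per length it had 68.3 ± 25.9 TPM in Cre- MPTP mice, and its range of 43.8 to 95.4 overlapped those of Cxcl1 (65.7 to 88.5) and Ccl27a (48.2 to 74.0). Its neighbours on chromosome 11 moved less. Ccl9 had 13, 11 and 22 counts against 19, 98 and 83 and rose by 2.31 (SE 0.53, adjusted p = 0.0313). Ccl3, which also acts on CCR1, had 5, 2 and 2 against 11, 74 and 33 and was not called (3.87, SE 1.14, adjusted p = 0.109). Ccl6 overlapped between groups, with 43, 21 and 27 counts against 7, 18 and 54. Ccl4 had at most 6 counts in any library.

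The CXCR3 ligands Cxcl9 and Cxcl10 are interferon-induced and lie within 28 kb of each other on chromosome 5. Cxcl10 had 15, 14 and 10 counts in Cre- Saline and 65, 338 and 113 in Cre- MPTP, or 0.365 to 0.595 CPM against 7.04, 13.4 and 3.73. It rose by 3.99 on the log2 scale (SE 0.66, adjusted p = 0.00477). Cxcl9 had 3, 0 and 0 counts against 9, 31 and 41, a ratio of 32.6 with a counting interval from 10.8 to 161, and an adjusted p of 0.0337. For both genes every Cre- MPTP library lay above every Saline library. Exons of Cxcl10 overlap those of Art3 on the other strand, and the strand setting of the counting is not given in the sources used here, so reads of the pair cannot be told apart. The same holds for Cxcl16 with Zmynd15, Ackr4 with Acad11, Ccl25 with Elavl1 and Ccl27a with Il11ra1.

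The stretches before the starts of this pair (GRCm38.p6, minus strand) are shown for comparison with Cxcl1 and Cxcl2. Capitals mark the same NF-kappaB-like letters and, in Cxcl10, also the interferon-response-like letters TTTCNNTTT on either strand.
Cxcl9, chr5:92328080-92328219: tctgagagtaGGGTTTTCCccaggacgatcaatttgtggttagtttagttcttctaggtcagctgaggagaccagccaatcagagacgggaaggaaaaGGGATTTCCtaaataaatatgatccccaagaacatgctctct
Cxcl10, chr5:92348890-92349111: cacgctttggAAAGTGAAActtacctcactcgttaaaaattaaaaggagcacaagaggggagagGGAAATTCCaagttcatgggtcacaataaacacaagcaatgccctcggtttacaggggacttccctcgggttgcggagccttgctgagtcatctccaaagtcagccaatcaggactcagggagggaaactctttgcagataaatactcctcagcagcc
Cxcl9 held 2 NF-kappaB-like matches. Cxcl10 held 1 of them and 1 interferon-response-like match. The latter letters were in 5 of the 31 members with a promoter, or 16.1%, against 12.1% of genes, and those members were Cxcl10, Cxcl14, Ccl19, Ccl28 and Ccr1.

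Cxcl16, a transmembrane ligand of CXCR6 that also serves as a scavenger receptor, had the smallest SE among the 10 that rose. It had 1.75, 2.11 and 2.85 CPM in Cre- Saline and 9.97, 8.63 and 8.65 in Cre- MPTP, with no overlap. It rose by 2.02 on the log2 scale (SE 0.27, adjusted p = 0.00184). Cxcr6 itself had at most 6 counts in a library. Cx3cl1 had 240.2, 193.0 and 205.9 CPM in Cre- Saline and 181.5, 183.8 and 163.8 in Cre- MPTP. Every Cre- MPTP library lay below the Saline range, but the difference was not called (log2 fold change -0.27, SE 0.12, adjusted p = 0.325).

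Among the homeostatic ligands Cxcl12 moved the other way. It had 53.1, 64.3 and 67.6 CPM in Cre- Saline and 19.8 to 29.6 in Cre- MPTP, from 273, 606 and 599 counts. The groups were well apart, and the log2 fold change was -1.34 (SE 0.17, adjusted p = 0.00154). The 100 bases before its RefSeq start (chr6:117168435-117168534, GRCm38.p6, plus strand) held no match to either set of letters. Most genes hold none, with the NF-kappaB-like letters in 6.62% of genes and the interferon-response-like letters in 12.1%. The stretch is also shorter than those of Cxcl9 and Cxcl10, so it does not set Cxcl12 apart from the ligands that rose.
Cxcl12: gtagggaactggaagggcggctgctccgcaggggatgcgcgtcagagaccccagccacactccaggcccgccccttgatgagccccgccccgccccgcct
Its signalling receptor Cxcr4 had 64, 67 and 40 counts against 1, 36 and 25 and was not called (log2 fold change -1.36, SE 0.49, adjusted p = 0.222), with Cre- MPTP replicate 1 the low library. Its scavenging receptor Ackr3 overlapped between groups. Cxcl14 had 133.8, 105.4 and 105.0 CPM in Cre- Saline and 588.8, 110.0 and 115.6 in Cre- MPTP, so its fitted log2 fold change of 1.24 (SE 0.50, adjusted p = 0.276) rested on replicate 1 and was -0.02 without it. Ccl25 and Ccl28 were also far from their group in that library, with 31 counts against 268 and 311 for Ccl25 and 0 against 96 and 56 for Ccl28. Cxcl13, a B cell attractant, had 4, 7 and 19 counts against 16, 13 and 93 (2.22, SE 0.77, adjusted p = 0.195). Ccl17, a ligand of Ccr4, had 13, 11 and 11 against 15, 16 and 29 (1.18, SE 0.52, adjusted p = 0.321). The remaining receptors were not called: Ccr1, on monocytes and neutrophils, had 8, 6 and 49 counts in Cre- MPTP against 5, 5 and 7, Ccr2 had 0, 8 and 19 against 11, 8 and 3, and Ccr10 had 44, 35 and 39 against 28, 32 and 66.

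The count of 11 called members fell to 5, 7 and 6 without Cre- Saline replicates 1, 2 and 3 in turn, and was 7 when only these 2 groups were fitted. That fit lost Cxcl12 (log2 fold change -1.34, adjusted p = 0.0691), Cxcl5, Ccl11, Ccl9 and Cxcl9 and added Cxcl2. Without Cre- MPTP replicate 1 it was 14, with all 11 among them. Cxcl1, Cxcl10, Cxcl16, Ccl11 and Cxcl12 passed in each fit that left out 1 library, and the other 6 did not. Of those 13 fits, Cxcl9 lost its call in 9, Ccl9 in 6, Cxcl5 and Ccl7 in 3 each (the Cre- Saline libraries), Ccl5 in 2 (Cre- Saline replicates 1 and 3) and Ccl2 in 1 (Cre- Saline replicate 1). For Cxcl9 these were the 6 Saline libraries, replicates 2 and 3 of Cre- MPTP and replicate 3 of Cre+ MPTP, and its log2 fold change ran from 4.23 to 7.86. Ccl9 lost it without any 1 Cre- Saline library, Cre+ Saline replicate 3, or Cre- MPTP replicate 2 or 3.

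**Figure D2:**
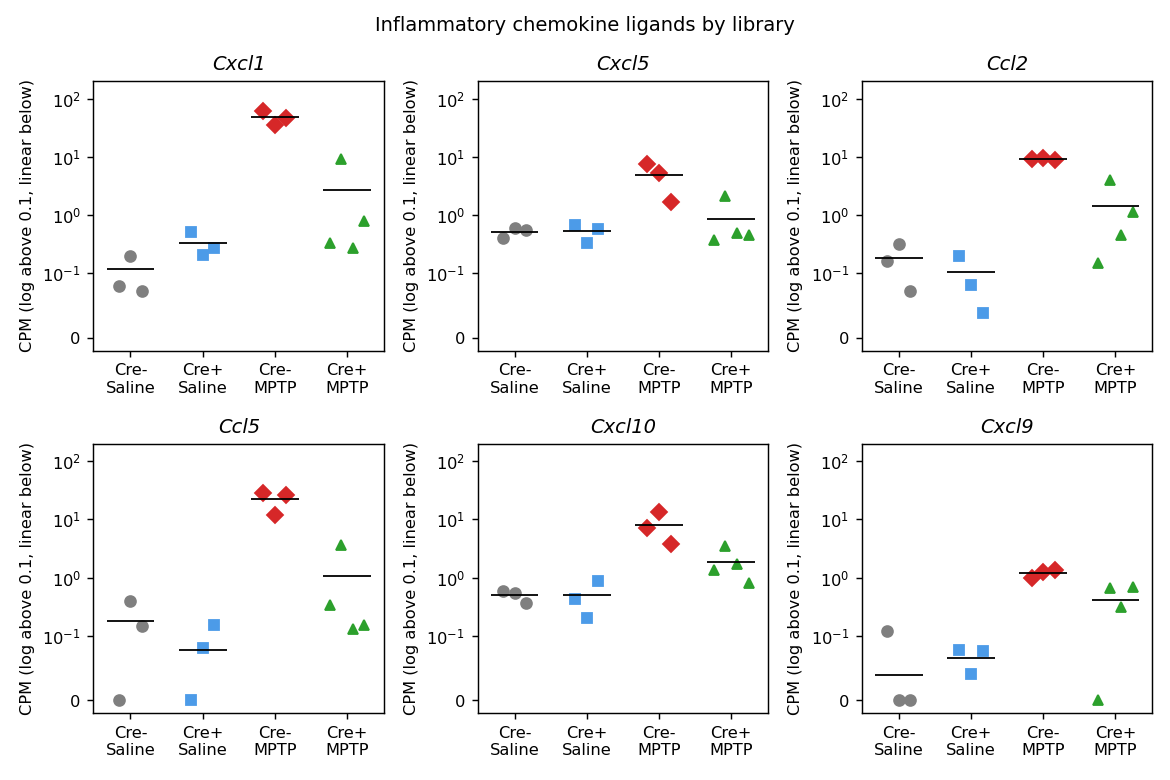
CPM of 6 inflammatory ligands in each library (symbols) and the mean of each group (line), on an axis that is logarithmic above 0.1 and linear below. All Cre- MPTP libraries lie above all Cre- Saline libraries, and in Cre+ MPTP 1 library is far above the other 3 for Cxcl1 (9.29 CPM against 0.266 to 0.801) and Ccl5 (3.69 against 0.133 to 0.333).

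MPTP in Cre+ mice called no member, and 0% of all 19360 genes passed in this comparison by edgeR. At an unadjusted p under 0.05, 8 of the 30 tested members and 672 of all genes passed. DESeq2 called 2 members, Ccl2 and Ccl12, and limma voom called 2, Ccl11 and Ccl12. In 2 members, Ccl12 and Ccl11, every Cre+ MPTP library lay above every Cre+ Saline library, and in 0 below, against 5.06% and 4.61% of all genes. Ccl12 had 10, 2 and 11 counts in Cre+ Saline and 85, 12, 56 and 33 in Cre+ MPTP, with a log2 fold change of 2.65 (SE 0.74, adjusted p = 0.683, unadjusted p = 0.00367). Ccl11 had 1, 0 and 1 counts against 5, 2, 5 and 11. The log2 fold changes of Cxcl1 (2.95, SE 1.14), Ccl2 (3.63, SE 1.02) and Ccl5 (3.61, SE 1.41) had adjusted p from 0.684 to 1. Cxcl12 (-0.26, SE 0.16) and Cxcl16 (0.24, SE 0.25) both had an adjusted p of 1.

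The spread of these values within Cre+ MPTP was wide and followed 1 library. In Cre+ MPTP, Cxcl1 had 9, 166, 6 and 21 counts in replicates 1 to 4, Cxcl2 had 0, 49, 0 and 0, and Ccl5 had 9, 66, 3 and 4. Ccl2 had 4, 70, 10 and 29. Replicate 2 was thus the highest of the 4 for each, and it was the highest for 7 of the 10 members that rose in Cre- mice. Without it the log2 fold change of Cxcl1 with MPTP in Cre+ mice was 0.52 and that of Ccl5 1.36. Ccl12 ran otherwise, with its lowest Cre+ MPTP value, 0.671 CPM, in replicate 2 and its highest, 3.14 CPM, in replicate 1. In replicate 1 the 5 choroid plexus markers summed to 69.5 CPM, against 9.44 to 18.2 in the other 12 libraries. Summed over the 8 neutrophil markers, Cre+ MPTP replicate 2 also stood highest at 4.20 CPM, against 0.801 to 1.46 in the other 3 libraries. Its muscle marker sum was 61.8 CPM, and the part of these in the chemokine values was not tested.

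The question of astrocytic RIPK3 under MPTP is addressed by Cre+ MPTP against Cre- MPTP, which shares the Cre- MPTP libraries with the comparison above, so the values below are given beside it and not as a second test of the same change. Of the 30 tested members, 3 were lower in Cre+ mice (Cxcl1, Ccl5 and Cxcl16) and 1 was higher (Cxcl12). Among all genes 1.54% were called, 1.03% lower and 0.517% higher. In 8 members every Cre+ MPTP library lay below every Cre- MPTP library and in 3 above, against 5.07% and 6.25% of all genes. The median log2 fold change of the 30 was -1.04, against 0.03 over all genes. Cxcl2, Ccl7, Ccl5 and Cxcl9, all among those lying below, needed Cre- MPTP libraries to pass the filter, as did Ccl11 and Ccl3. They were in part chosen for high Cre- MPTP values. Ackr4, among those lying above, likewise needed Cre+ MPTP libraries. These counts and this median therefore describe the tested members and not the full list.

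Cxcl16 was the clearest of the 4. It had 9.97, 8.63 and 8.65 CPM in Cre- MPTP and 2.11, 3.47, 2.62 and 2.48 in Cre+ MPTP, close to its Saline range of 1.63 to 2.85. The log2 fold change was -1.77 (SE 0.24, adjusted p = 0.0072), and it kept its call when any 1 library was left out. Cxcl12 had 43.0, 43.5, 41.6 and 52.7 CPM in Cre+ MPTP against 19.8 to 29.6 in Cre- MPTP, with a log2 fold change of 0.89 (SE 0.16, adjusted p = 0.0206). Cxcl1 had a log2 fold change of -4.21 (SE 0.94, adjusted p = 0.0452) and Ccl5 of -4.44 (SE 0.98, adjusted p = 0.0437). Both had all 4 Cre+ MPTP libraries below all 3 Cre- MPTP libraries, replicate 2 of Cre+ included. Without Cre+ MPTP replicate 2 these values were -6.65 for Cxcl1 and -6.69 for Ccl5.

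No other inflammatory ligand was called between genotypes. For the CXCR2 ligands the log2 fold changes were -2.50 for Cxcl5 (adjusted p = 0.0743) and -3.32 for Cxcl2 (0.214). For the stretch on chromosome 11 that holds the CCR2 ligands they were -2.75 for Ccl2 (adjusted p = 0.107), -2.79 for Ccl7 (0.0885) and -2.08 for Ccl11 (0.0887). Cxcl10 stood at -2.15 (adjusted p = 0.0817), Ccl3 at -2.35 (0.216), Cxcl9 at -1.54 (0.292) and Ccl9 at -1.01 (0.256), while Ccl6 stood at 0.80 (0.342). Ccl2 had 0.148, 3.92, 0.444 and 1.11 CPM in Cre+ MPTP against 8.88 to 9.66, without overlap. Leaving out Cre+ MPTP replicate 2 moved Ccl2 to -4.01 (adjusted p = 0.00558), Ccl7 to -3.81 (0.0128), Cxcl5 to -3.41 (0.00608) and Ccl3 to -4.62 (0.0099), and left Cxcl2 at 0 counts in the other 3 Cre+ MPTP libraries. Ccl12 differed least of the monocyte attractants, with 3.14, 0.671, 2.48 and 1.26 CPM against 0.542, 2.18 and 2.51, a log2 fold change of 0.06 (SE 0.63, adjusted p = 0.956) and groups that overlapped. Ackr4, an atypical receptor that scavenges homeostatic CC ligands, had 18, 7, 10 and 18 counts in Cre+ MPTP against 0, 4 and 6 (1.89, SE 0.59, adjusted p = 0.165).

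These calls changed with the fit. In 13 fits that each left out 1 library, Cxcl12 lost its call in 3 (Cre+ MPTP replicate 1, 3 or 4 left out). Cxcl1 lost its call in 9, those 3 and the 6 without a Saline library, and Ccl5 in the same 9 and without Cre- MPTP replicate 3. When only the 2 MPTP groups were fitted, 0 members were called and 0 genes in all. The count was 2 without any 1 of the 6 Saline libraries, 7 when Cre- MPTP replicate 1 was dropped, 1 when Cre+ MPTP replicate 1, 3 or 4 was, and 10 without Cre+ MPTP replicate 2. DESeq2 called 9 members and limma voom 13, and both included the 4 above.

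**Figure D3:**
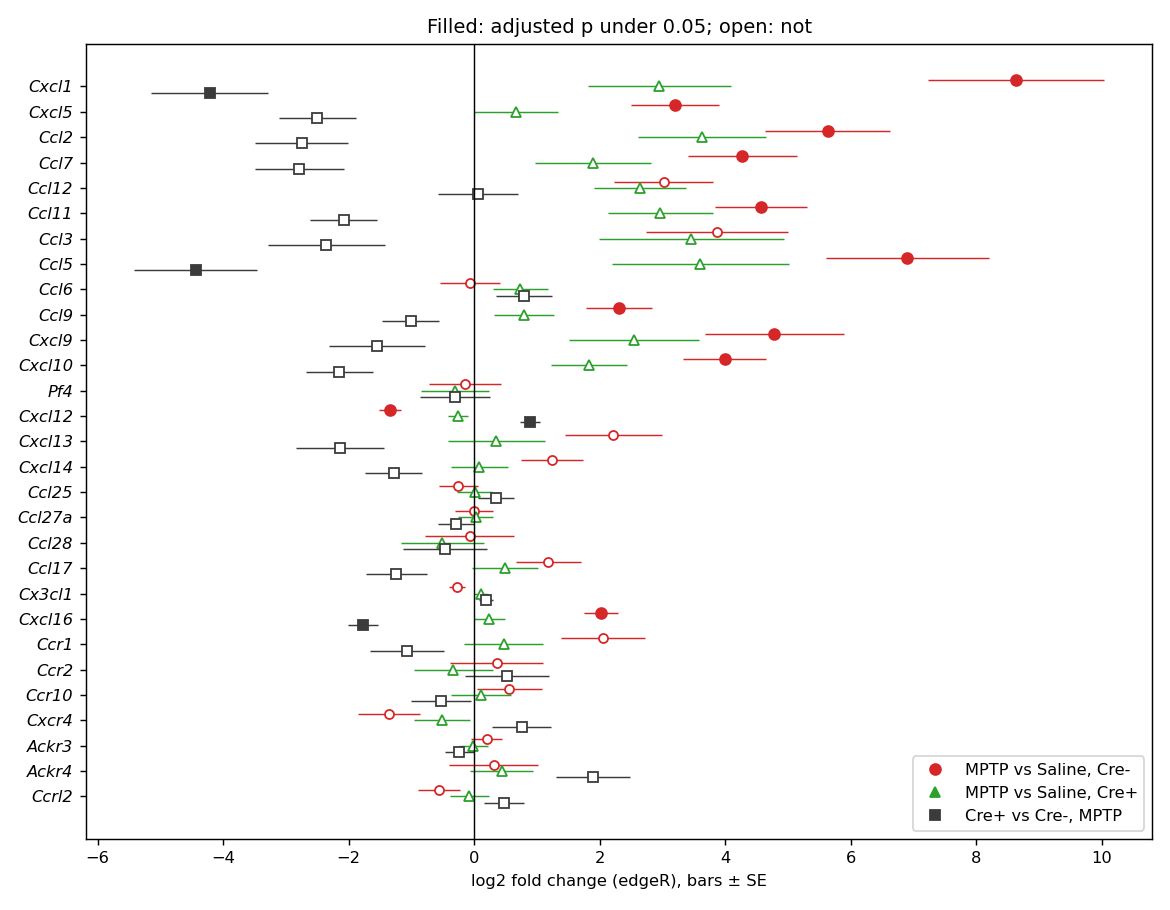
Log2 fold change of 29 tested members (Cxcl2 is left out because Cre- Saline held 0 counts) with bars of 1 SE, for MPTP against Saline in Cre- (circles) and Cre+ (triangles) mice and for Cre+ against Cre- under MPTP (squares). Filled symbols passed an adjusted p of 0.05, and Cxcl12 is the called gene on the side opposite to the others.

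In Saline mice the genotypes did not differ in any call. No member and 0% of all 19360 genes passed by edgeR, 1 member (Ackr4) and 176 genes had an unadjusted p under 0.05, and DESeq2 and limma voom called 0 members. In 3 members (Cxcl1, Ccr2 and Ackr4) every Cre+ Saline library lay above every Cre- Saline library and in 1 (Ccl3) below, against 5.91% and 5.71% of all genes. Ackr4 had 4, 4 and 1 counts in Cre- Saline and 6, 11 and 14 in Cre+ Saline (log2 fold change 1.76, SE 0.63, adjusted p = 1). Cxcl1 had 13, 5 and 7 counts in Cre+ Saline against 2, 5 and 2, still far under any Cre- MPTP library.

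Whether the response to MPTP differed between genotypes was tested by the interaction term. No member was called, with 0.0103% of all genes called by edgeR. At an unadjusted p under 0.05, 6 of the 30 tested members and 1116 of all 19360 genes passed. The closest were Cxcl16 (-1.78, SE 0.36, adjusted p = 0.145) and Cxcl12 (1.08, SE 0.23, adjusted p = 0.164), and Cxcl1 reached -5.68 (SE 1.82, adjusted p = 0.496). With Cre- MPTP replicate 1 left out 2 members passed (Cxcl16 and Cxcl12), and 1 did (Cxcl1) with replicate 2 of Cre+ MPTP left out. DESeq2 called 3 members and limma voom 6. A call in Cre- mice that is missing in Cre+ mice is therefore not shown by edgeR to differ between them.

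**Figure D4:**
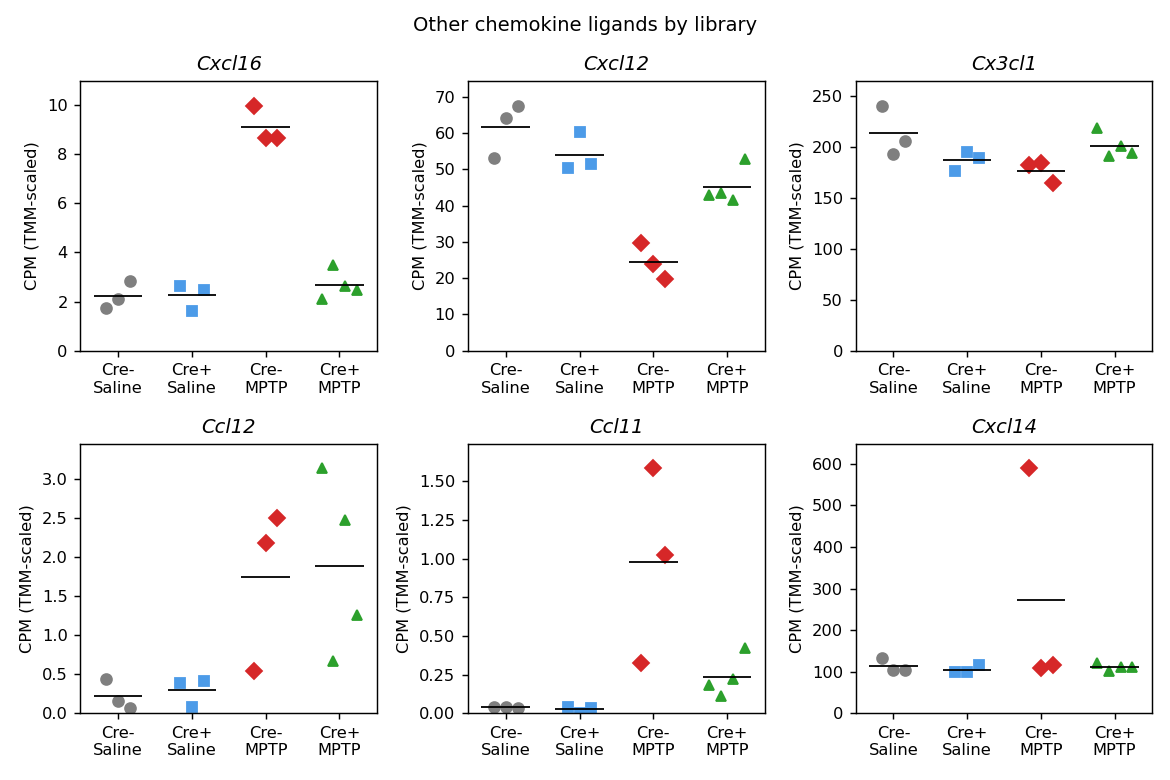
CPM of Cxcl16, Cxcl12, Cx3cl1, Ccl12, Ccl11 and Cxcl14 in each library (symbols), with the group mean (line), on axes that start at 0. Cxcl16 and Cxcl12 separate Cre- MPTP from the other groups, Ccl12 lies above Saline in both MPTP groups, and the Cxcl14 mean of Cre- MPTP is set by 1 library at 588.8 CPM.

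Summed per length, all 28 ligands came to 462.0 to 553.4 TPM in the Saline libraries, to 1114, 710.3 and 745.2 in Cre- MPTP and to 485.4 to 544.3 in Cre+ MPTP. Cxcl14 alone held 713.4 TPM of the highest sum. Without Cxcl14, Cx3cl1, Ccl27a, Cxcl12 and Ccl25, the 5 ligands with the highest TPM in Cre- Saline, the remaining 23 ligands summed to 17.96 to 25.8 TPM in the 6 Saline libraries. They summed to 215.3, 262.0 and 314.0 TPM in Cre- MPTP and to 40.7, 89.2, 41.3 and 41.5 in Cre+ MPTP. These sums hold the called ligands, mainly Cxcl1 and Ccl5 in Cre- MPTP, were chosen after their values were seen and carry no test.

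Of 78 other genes of the chemokine pathway, chosen as receptors and ligands outside the 40, signal transducers, regulators of chemokine transcription and mRNA decay, and enzymes that cut or display chemokines, 62 were tested. With MPTP in Cre- mice 16 were higher and 1 lower, and in Cre+ against Cre- mice under MPTP 0 were higher and 9 lower. These are 27.4% and 14.5% of the 62, against 3.18% and 1.54% of all genes tested, from a list chosen with results of these data known. A gene such as Mmp12, at 0 counts in Cre- Saline, could pass the filter through its high Cre- MPTP counts alone. These shares therefore describe the tested genes and not the 78. The other 3 comparisons called 0 of them by edgeR. Among regulators of transcription and decay, 8 of 17 rose in Cre- mice, and 5 of 17 were lower in Cre+ MPTP: Zc3h12a, a ribonuclease that cuts chemokine mRNAs, Nfkb2, Nfkbia, Nfkbiz and the NF-kappaB brake Tnfaip3. Nfkbia rose by 2.49 (SE 0.45, adjusted p = 0.00839) and had -2.41 (SE 0.41, adjusted p = 0.0154) between genotypes. With MPTP in Cre- mice the log2 fold changes of 6 others were 3.13 for Irf7, 2.56 for Zc3h12a, 2.09 for Nfkb2, 1.92 for Tnfaip3, 1.83 for Nfkbiz and 1.70 for Zfp36. Among 28 tested genes of receptor signalling, 4 rose: Pik3r5 by 2.89, Rac2 by 1.86, Vav1 by 1.53 and Stat3 by 1.17, and of these Pik3r5 (-2.01) and Stat3 (-0.86) were lower in Cre+ mice. Of 10 genes of proteolysis and display, Sdc4, a proteoglycan that binds chemokines, rose by 1.14 and had -0.90 between genotypes, and Mmp9 rose by 1.48. Dpp4, a protease that trims Cxcl12 and other ligands, fell by 1.84. Mmp12 had 0 counts in every Cre- Saline library and 22, 81 and 34 in Cre- MPTP. Ackr1, the atypical receptor that carries inflammatory chemokines across venous endothelium, had 23.0 to 29.8 CPM in Cre- Saline, 53.3, 51.4 and 102.1 in Cre- MPTP and 26.8 to 33.6 in Cre+ MPTP, and was called higher with MPTP (1.40, SE 0.24, adjusted p = 0.00631) and lower in Cre+ mice (-1.16, SE 0.22, adjusted p = 0.0255). Its exons overlap those of Cadm3 on the same strand, with mean counts of 884 for Ackr1 and 9132 for Cadm3. The part of this overlap in the Ackr1 values was not tested. Cxcr2, the receptor for Cxcl1, Cxcl2 and Cxcl5 on neutrophils, was under the filter, with 11, 3 and 86 counts in Cre- MPTP and at most 5 in any other library.

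Marker lists of other cells were read beside the ligands, and among the leukocyte lists the neutrophil sum was the one whose Cre- MPTP libraries all lay above every other library. The 8 neutrophil markers summed to 0.159 to 3.66 CPM in the Saline groups, to 15.3, 10.7 and 64.3 in Cre- MPTP and to 0.801 to 4.20 in Cre+ MPTP. Of the 5 that were tested, 4 were higher with MPTP in Cre- mice and 4 were lower in Cre+ mice under MPTP. Among all genes tested, 2.23% were called higher in the first comparison and 1.03% lower in the second. The 8 markers together held 4 to 96 counts per Saline library and 141, 271 and 1948 in Cre- MPTP. They may have passed the filter largely through Cre- MPTP, so the 4 of 5 describes only the tested markers. Of 7 microglia markers, 3 (P2ry12, Siglech and Gpr34) were lower with MPTP in Cre- mice and higher in Cre+ against Cre- mice under MPTP, while the summed level of the 7 was 219.1 to 252.6 CPM in Cre- Saline and 146.7 to 197.1 in Cre- MPTP. The 8 markers of monocytes and border macrophages summed to 20.2 to 30.9 CPM in the Saline groups, 14.1 to 31.6 in Cre- MPTP and 21.0 to 43.5 in Cre+ MPTP, and Ly6c2 rose with MPTP in Cre- mice (2.66, SE 0.47, adjusted p = 0.00704) while Mrc1 fell. Of 6 astrocyte markers, Gfap rose by 2.60 and Aldh1l1 by 0.65 with MPTP in Cre- mice, and Gfap had -2.20 between genotypes under MPTP. The log2 fold changes of the 6 were 3 positive and 3 negative in the first comparison and 4 positive and 2 negative in the second. The 6 summed to 2170 to 2918 CPM in the Saline groups, 3852 to 4387 in Cre- MPTP and 2672 to 3119 in Cre+ MPTP. The 8 T and NK cell markers summed to at most 1.90 CPM in any library and all were at 0 in Cre- MPTP replicate 1. The 6 platelet markers summed to 53.9 CPM in Cre- MPTP replicate 1 and to 8.03 to 13.5 in the other 12 libraries. The 5 dendritic cell markers, which share Siglech with microglia, summed to 47.0 to 50.8 CPM in the Saline groups, 23.6 to 39.2 in Cre- MPTP and 47.4 to 56.9 in Cre+ MPTP, with Siglech as the called gene. The 6 endothelial markers summed to 214.4 to 274.4 CPM in the Saline groups, 267.1 to 429.8 in Cre- MPTP and 253.4 to 334.1 in Cre+ MPTP. Among them Tek was the only one called. It fell by 1.81 with MPTP in Cre- mice (adjusted p = 0.00374) and was higher by 1.88 in Cre+ mice under MPTP (adjusted p = 0.00907). With MPTP in Cre- mice 4 of the 6 had a positive log2 fold change and 2 a negative one. Between genotypes under MPTP 3 were positive and 3 negative. The 6 markers of meningeal fibroblasts summed to 142.2 to 192.9 CPM in the Saline groups, 189.0 to 213.9 in Cre- MPTP and 120.0 to 185.5 in Cre+ MPTP. Dcn rose by 1.52 with MPTP in Cre- mice and was the only one called there. In that comparison 3 of the 6 had a positive log2 fold change and 3 a negative one. The 5 oligodendrocyte markers summed to 11865 to 16167 CPM in Saline, 8754 to 11320 in Cre- MPTP and 10455 to 13714 in Cre+ MPTP, and Mog fell by 1.72 in the same comparison. Markers of neurons, choroid plexus, erythrocytes and pituitary had no called gene in either comparison. The part of these cells in the chemokine values was not tested.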

How the data were processed

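Per the labels and the study's methods, the authors trimmed reads (Trimmomatic 0.36), aligned them to GRCm38 (STAR 2.5.2b) and assigned unique hits to genes (featureCounts, Subread 1.5.2), with versions from the submitters' processing notes. Deposited values are raw counts per gene. The strand setting is not given in the sources used here. Symbols were matched to 48970 of 49315 gene IDs. Under R 4.3.3, edgeR 4.0.16 was fitted with TMM factors and a term for each group, on 13 libraries and the 19360 genes that reached 10 counts in 3 or more libraries. Its quasi-likelihood test gave 5 comparisons, each with Benjamini-Hochberg adjustment. SE is the log2 fold change over the square root of F. TPM used the gene lengths in the files. At these depths 3 counts, the floor used for groups at 0, are 0.0990 to 0.325 CPM, and intervals cover counting error only. Alternatives were DESeq2 1.42.0, limma 3.58.1 voom with quality weights, DESeq2 size factors, other filters, the 2 groups alone, a replicate block, and libraries left out. The fits were tested on simulated data.

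The members, lists and tests were chosen with earlier results of these data known. Called members were named with every library's value, others by role with their best measured genes, and those under the filter as counts. Cxcr2 and the ligand sums were chosen after their values were seen. Promoters are from RefSeq (GRCm38.p6). Summed levels and tests were made for 16 marker lists of other cells. Some genes of the pathway list are not reported here.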

Additional observations from a re-analysis of the deposited data

Results flagged for a closer look

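Among the 30 tested members, 7 had 1 Cre+ MPTP library far from the other 3, by a test of the gap to the nearest library over the whole range (Dixon's test). Chance flags about 1 in 20 genes, or 1.5 of 30. In 5 of the 7 the library was replicate 2, which was high. It held 9.29 CPM of Cxcl1 against 0.266 to 0.801 in the others, 2.74 of Cxcl2 against 0, 2.13 of Cxcl5 against 0.370 to 0.488, 1.29 of Ccl3 against 0 to 0.133, and 3.69 of Ccl5 against 0.133 to 0.333. Cxcl12 was high in replicate 4, at 52.7 CPM against 41.6 to 43.5, and Cxcr4 in replicate 3, at 1.86 CPM against 1.29 to 1.37. The genes share libraries and are not independent of each other.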

How the results depend on the processing

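With MPTP in Cre- mice 11 members were called by edgeR. limma voom called 17 and the fit of only the 2 groups 7, and leaving out 1 library at a time gave 5 to 14. In all genes 616 became 1137 with DESeq2, 2624 with limma voom, 110 in the 2 groups alone, 308 to 1817 with 1 library left out, and 1946 when the 2 libraries that stood apart, Cre- MPTP 1 and Cre+ MPTP 4, were both dropped. With MPTP in Cre+ mice DESeq2 and limma voom each called 2 members where edgeR called 0, and 83 and 294 genes in place of 0. Other fits of that comparison gave 15 genes in the 2 groups alone, 9 with no filter, 38 with both libraries dropped and 0 to 32 with 1 library left out. Between genotypes under MPTP the 4 members became 9 with DESeq2, 13 with limma voom and 0 in the 2 groups alone, and 1 to 10 with 1 library left out. The 299 genes became 834, 1224 and 0, and 36 to 1783, and were 568 with both dropped. For the interaction, DESeq2 called 3 members, limma voom 6 and the fit with both dropped 2, where edgeR called 0, with 0 to 2 when 1 library was left out; the 2 genes called in all became 223, 689 and 220, with 10 at no filter and 0 to 199 with 1 library left out. Between genotypes in Saline mice no alternative called a member, and genes in all went from 0 to at most 6. The cause of these differences was not tested.

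The labels do not say whether replicate numbers shared by the groups pair the samples. The correlations of the deviations of same-numbered libraries lay from -0.125 to 0.184. The same number was the best match for numbers 1 and 2 with MPTP in Cre- mice and for number 2 between genotypes under MPTP. With so few libraries this cannot settle whether they were paired. With the replicate block, which leaves Cre+ MPTP replicate 4 without a partner, 8 members were called with MPTP in Cre- mice and 0 between genotypes under MPTP, where 0 genes in all passed. No member was called in the other 3 comparisons.

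Of 45 named log2 fold changes under 21 alternatives, 928 values were obtained. Of these 803 kept direction and side of the threshold, 61 lost the call, 56 gained one and 8 turned sign. Those were Ccl12 between genotypes under MPTP, at -0.17 with limma voom, -0.063 with the replicate block, -0.14 with both libraries dropped and -0.30 to 0.40 with 1 library left out (below 0 without Cre- MPTP 1, Cre+ MPTP 1 or Cre+ MPTP 3), and Cxcl14 with MPTP in Cre- mice, at -0.022 with both dropped and -0.022 to 1.60 with 1 left out (below 0 without Cre- MPTP 1). Depth limits the genes near 0: 3 counts are 0.325 CPM in Cre- MPTP replicate 1 and 0.0990 in replicate 3.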
